A study of Bos taurus with 14 samples.

Results

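The genes described here are growth factors, their receptors and the proteins that bind them, measured in bovine endometrial stromal cells (BES) and in bovine granulocytes with and without interferon tau (IFNT). They were chosen by name: symbols that begin with IGF, FGF, TGFB, BMP, PDGF, VEGF, WNT, INHA, INHB or FST, and HGF. This choice was made with earlier results of these data known. The symbol VEGFA was left out by the rule, but a probe that the array files name VEGF stayed in, and RefSeq lists that name as a synonym of VEGFA. Where a symbol had several probes, the probe with the highest mean log2 signal over the 14 arrays stood for it. This gave 45 symbols from 48 matching probes, of 6327 symbols named in the same way and 15208 non-control probes on the array. The 45 symbols stand for 44 RefSeq genes, because BMPR-IA and BMPR1A are names of 1 gene. They comprise 11 names of the insulin-like growth factor (IGF) family, 11 of the fibroblast growth factor (FGF) family, 5 of the bone morphogenetic protein (BMP) family and 3 each beginning with TGFB, PDGF, VEGF, INH and FST, beside 2 WNT genes and HGF. FGFR1OP, a centrosomal protein now called CEP43, and TGFB1I1, a focal adhesion adaptor, match by name and are not growth factors or receptors. FGF12 and PDGFRL were likewise classed here outside the ligands, receptors and binding proteins.

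Each of the 14 arrays held Cy3-labelled RNA of 1 sample. For BES, 3 samples had phosphate-buffered saline (PBS) and 3 had IFNT; for granulocytes, 4 had PBS and 4 had IFNT, all for 2 h. The stated dose was 1 mg/mL, in which the unit may be an error, and RNA extraction is described for granulocytes alone. The labels name neither breed, age nor sex of the animals, nor passage or purity of the cells. Nor do they tie a replicate to an animal or culture, so errors and p-values measure the spread between these samples, which may be technical. The 6 BES arrays shared 1 slide and the 8 granulocyte arrays a second one: cell type and slide cannot be told apart. In granulocytes the PBS arrays filled row 1 of the slide and the IFNT arrays row 2, so treatment and row cannot be told apart either.

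IFNT, a type I interferon made by the early ruminant embryo, is the signal by which the mother recognises pregnancy. Growth factors act through surface receptors: IGFs, FGFs, PDGFs, VEGFs and HGF through receptor tyrosine kinases, the TGF-beta family (with BMPs, activins and inhibins) through serine/threonine kinase receptors that phosphorylate SMAD proteins. Secreted binding proteins set how much ligand reaches a receptor: IGF-binding proteins (IGFBPs) hold IGFs, and follistatins trap activins and some BMPs. In the uterus these systems take part in stromal growth, decidual change in species that decidualise, and the formation of vessels.

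Each value rests on 1 probe of 60 bases, and the sequences are shown so that it is plain which transcript a value reads. The first 30 bases, 5′ to 3′, of probes on which the results below turn most are as follows.
VEGF: tgctgctaaatcaccgagcccggaagatta
VEGFB: actgagaagaccccaatcctctacaaaaat
INHBA: agacggtccagagaagacagtggtgacacg
TGFBR1: gatttctccctggttagtacattctcagag
IGFBP1: tctgtggccgtcagaggggaccccaaatgc
IGFBP6: actccagaccgaggtcttccgcggggctca
FGFR3: ccatcaatgtgagaacagaccccagcccac
IGF2R: caaccaacccgcagggttcctgggtttgta
The 2 names of the BMP type IA receptor are printed whole, because their probes differ in what they detected. The capitals mark a unit of 11 bases that occurs more than once in the first of them.
BMPR-IA: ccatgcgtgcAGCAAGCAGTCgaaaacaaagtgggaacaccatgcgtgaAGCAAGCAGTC
BMPR1A: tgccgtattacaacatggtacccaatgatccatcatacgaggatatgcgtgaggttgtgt
The probe named BMPR1A was well above background on all 6 BES arrays and on no granulocyte array, whereas the probe named BMPR-IA was above background on none of the 14 arrays. FGFR2 is spotted as 2 probes of identical sequence. On BES arrays the spot used here exceeded the other by 0.29 ± 0.09 on the log2 scale (SD, n = 6), and on granulocyte arrays it differed from it by -0.21 ± 0.21 (SD, n = 8), which is the size of error that a copy of the same probe can carry.

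All values below are levels: the log2 of the background-corrected signal minus the 75th percentile of the non-control probes of that array. A level of 0 is thus a probe at that percentile, and levels of different probes cannot be set against each other. In BES that percentile stood at intensities from 2564 to 3173, with 71.6% to 76.1% of probes well above background. In granulocytes it stood at 1009 to 1491, with 66.4% to 70.9%. The cells carried the markers of their labels: 8 of 8 stromal markers with a probe were above background on every BES array, and 8 of 8 granulocyte markers on every granulocyte array. In the other cell type, 4 of 8 stromal markers were above background on every granulocyte array, and 5 of 8 granulocyte markers on every BES array with PBS (4 of 8 with IFNT). The summed linear signal of the stromal list, in multiples of the percentile, was 86.0 to 93.3 in BES and 25.1 to 27.3 in granulocytes, and that of the granulocyte list was 0.815 to 0.964 and 718 to 920. Those on no array of the other cell type were COL1A2 and LUM, a collagen and a matrix proteoglycan, and the cathelicidins CATHL1, CATHL2 and CATHL4. Epithelial markers were also above background in BES, for 4 of 5 probes, with EPCAM on none. The epithelial list summed there to 207 to 235 with PBS and 217 to 219 with IFNT. The endothelial and smooth muscle list summed in BES to 53.8 to 67 with PBS and 46.2 to 52.8 with IFNT, with CDH5, PECAM1 and VWF on no array. In granulocytes, 5 of 5 T and NK cell markers were above background on every IFNT array and 4 of 5 on every PBS array. Of the monocyte and macrophage markers, 5 of 5 were so on every PBS array and 4 of 5 on every IFNT array. Their sum with PBS was 28 to 30.5, beside 2.79 to 2.85 for T and NK cell markers. On every granulocyte array, 2 of 2 B cell, 1 of 2 platelet and 1 of 1 eosinophil markers with a probe were above background.

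Under PBS most members differed in level between the cell types, as did most probes of the array. Of the 45 members, 18 were above background on all 14 arrays, 7 on all BES and no granulocyte array, and 5 on none. The probes of 30 members were above background on all 6 BES arrays and those of 19 on all 8 granulocyte arrays. The 7 found in BES alone by this count were FGF2, WNT2B, BMPR1A, FGFR1, PDGFRA, IGFBP2 and IGFBP3. In limma, 32 of the 35 members tested differed in level between granulocytes and BES under PBS at an adjusted p under 0.05, 11 higher in granulocytes and 21 lower. This share of 91.4% lies at the background: 91.7% of all probes tested differed, 46.7% higher and 45% lower in granulocytes. The split of the members was 15 higher and 16 lower with normexp background correction, which adds an offset and shrinks differences of dim probes. In bulk samples of this kind, fewer cells of a type and less RNA per cell cannot be told apart.

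**Figure D1:**
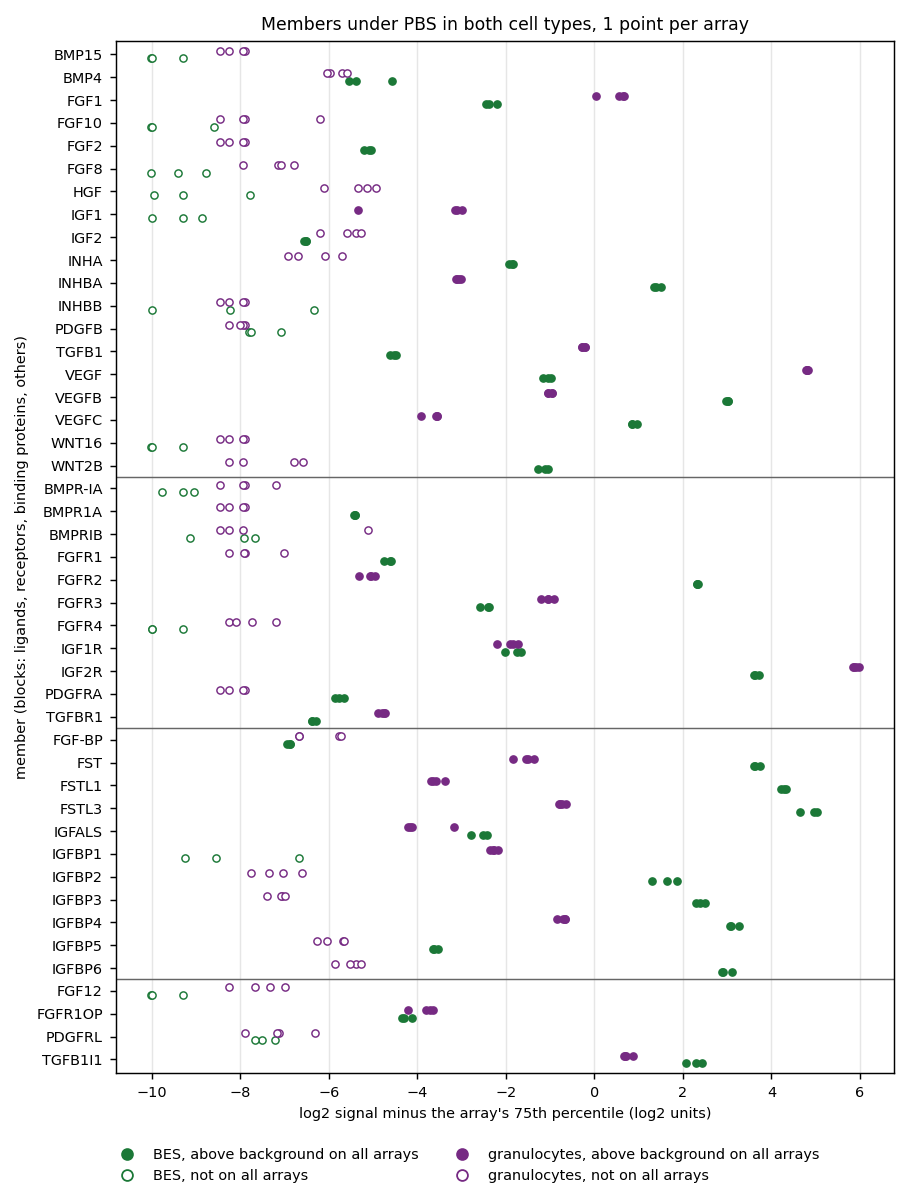
Levels of the 45 members under PBS in BES (green, n = 3 arrays) and granulocytes (purple, n = 4 arrays), with 1 point per array, the log2 level relative to the array's 75th percentile on the x axis and blocks for ligands, receptors, binding proteins and others. Open points mark groups in which the probe was not above background on every array. VEGF and TGFB1 in granulocytes lie far to the right of their BES points. IGFBP2, IGFBP3, IGFBP4, IGFBP6 and the follistatins in BES lie far to the right of their granulocyte points.

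Of the ligands, 13 were tested for level, of which 6 were higher and 7 lower in granulocytes, beside 46.7% and 45% of all probes. VEGF, the main inducer of vessel growth, lay at 4.82, 4.81, 4.79 and 4.81 in granulocytes with PBS and at -1.05, -0.99 and -1.17 in BES, a difference of 5.88 ± 0.048 (SE) or 58.8-fold. The granulocyte arrays agreed to within a few hundredths and lay far from every BES array. VEGFB and VEGFC, relatives of VEGF, ran the other way. VEGFB read 2.97, 3.01 and 3.02 in BES and -0.97, -0.95, -1.06 and -1.05 in granulocytes, 16.1-fold lower. VEGFC was 23.4-fold lower in granulocytes, with a mean level of -3.65 against 0.90 (means of n = 4 and n = 3).

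TGFB1, the TGF-beta ligand that restrains immune cells and drives matrix production, was 19.6-fold higher in granulocytes. Its levels there were -0.29, -0.22, -0.27 and -0.21, and -4.53, -4.48 and -4.61 in BES. INHBA, the activin A subunit, had the opposite pattern: 1.50, 1.40 and 1.34 in BES against -3.02, -3.14, -3.06 and -3.10 in granulocytes, 22.5-fold lower. INHA, the inhibin alpha subunit, was above background on all BES arrays and on 1 of 4 granulocyte arrays with PBS. The 2 subunits of this family that could be tested were thus both lower in granulocytes, while INHBB was above background on 1 BES array with PBS and on no granulocyte array.

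IGF1, the IGF that mediates growth hormone action, was above background on no BES array and on all 4 granulocyte arrays with PBS, where it was at least 14.1-fold higher than in BES. Here and below, such a bound sets the group mean of the bright side against the lowest signal that each array of the dim side called above background. A second IGF1 probe, of another sequence, was above background on no array of either cell type. The IGF1 signal in granulocytes was thus seen with the first probe and not with the second. HGF, the scatter factor that stromal cells and leukocytes can release, was at least 4.26-fold higher in granulocytes (3 of 4 arrays with PBS above background) and above background on no BES array. IGF2, the fetal IGF, was 1.89-fold higher in granulocytes (0.92 ± 0.194), with 3 of 4 granulocyte arrays with PBS above background, and the call was lost with quantile normalization (0.37). FGF1, an FGF that is released without a signal peptide, lay at 0.56, 0.64, 0.03 and 0.67 in granulocytes and at -2.38, -2.21 and -2.46 in BES, 7.10-fold higher. FGF2, its relative, was at least 1.66-fold lower in granulocytes, but the call was lost with normexp correction (-0.11). WNT2B, a canonical Wnt ligand, was at least 26.0-fold lower there, with -1.04, -1.12 and -1.28 in BES. BMP4, a ligand of the BMP receptors, was above background on 1 of 4 granulocyte arrays with PBS, so its fitted difference of -0.66 ± 0.240 rests mostly on values at background. Its sign turned with normexp correction and the call was lost without BES PBS replicate 2 (-0.37).

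Among the receptors, 3 of 8 tested were higher in granulocytes and 4 lower, beside 46.7% and 45% of all probes. IGF2R, the mannose-6-phosphate receptor that clears IGF2 and sorts lysosomal enzymes, read 5.98, 5.87, 5.84 and 5.91 in granulocytes and 3.60, 3.63 and 3.73 in BES, 4.75-fold higher. TGFBR1, the type I TGF-beta receptor, was 2.95-fold and FGFR3 2.64-fold higher in granulocytes. FGFR2, whose epithelial form answers FGF7 and FGF10, stood at 2.31, 2.33 and 2.32 in BES and at -4.95, -5.08, -5.32 and -5.06 in granulocytes, 171-fold lower. Its second spot of the same sequence gave a log2 difference of -6.89 against -7.42. FGFR1, BMPR1A and PDGFRA were lower in granulocytes by at least 2.27-fold, 1.34-fold and 1.06-fold. For FGFR1 and BMPR1A the call was lost with normexp correction, and for PDGFRA the sign turned. IGF1R, the receptor that carries the growth signal of both IGFs, was the only receptor tested whose levels did not differ past the threshold: -1.75, -1.67 and -2.03 in BES and -1.91, -1.84, -2.20 and -1.72 in granulocytes (log2 difference -0.10 ± 0.116, adjusted p = 0.423). These ranges overlap. With median scaling the difference was -0.25 and passed (adjusted p = 0.0461), and over the alternatives the adjusted p ran up to 0.955.

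Most binding proteins were lower in granulocytes: 9 of 11, while 1 was higher and FGF-BP, an FGF carrier, did not pass the threshold. Of all probes tested, 45% were lower and 46.7% higher. The median difference of the binding proteins was -5.22, beside 0.03 for all probes tested. IGFBP3, the main IGF carrier of serum, lay at 2.38, 2.29 and 2.49 in BES and was above background on no granulocyte array, at least 301-fold lower. IGFBP2, at 1.63, 1.86 and 1.30 in BES, was at least 174-fold lower. IGFBP6, which prefers IGF2, was at 3.12, 2.90 and 2.89 in BES and at -5.39, -5.53, -5.87 and -5.27 in granulocytes (-8.49 ± 0.127). IGFBP4 read 3.09, 3.26 and 3.07 in BES against -0.66, -0.72, -0.67 and -0.85 in granulocytes, 14.6-fold lower. IGFBP5 was lower as well, with 1 of 4 granulocyte arrays with PBS above background. These 5 IGFBPs stayed lower in granulocytes, and past the threshold, under each alternative run.

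IGFBP1, the short-lived IGFBP of liver and decidua, was the exception. It lay at -2.27, -2.30, -2.35 and -2.17 in granulocytes, while in BES 1 of 3 arrays with PBS (replicate 3, at -6.68) was above background. The fitted difference was 5.89 ± 0.449 on the log2 scale and ran from 3.13 to 6.63 over the alternatives, and 2 of the 3 BES values lay at background. The 3 follistatin genes were all higher in BES. FST, the activin trap, read 3.74, 3.64 and 3.60 in BES and -1.55, -1.50, -1.36 and -1.84 in granulocytes, 37.3-fold lower, and a second FST probe of another sequence gave -5.74. FSTL3, a close relative that also binds activin, was 49.0-fold lower in granulocytes, at -0.64, -0.80, -0.78 and -0.74 against 4.97, 5.02 and 4.64 in BES. FSTL1, a secreted glycoprotein of the same domain family, was 231-fold lower, at -3.64, -3.69, -3.58 and -3.37 against 4.28, 4.34 and 4.22. IGFALS, the subunit that completes the circulating IGF complex, was 2.52-fold lower. Outside these roles, TGFB1I1 lay at 0.87, 0.71, 0.67 and 0.68 in granulocytes and at 2.30, 2.44 and 2.08 in BES. FGFR1OP was 1.33-fold higher in granulocytes, a call that was lost with quantile normalization (0.14) and median scaling (0.26). It was also lost without BES PBS replicate 1 (0.39) or 2 (0.37) and without granulocyte PBS replicate 1 (0.37), 2 (0.40) or 3 (0.35). Quantile normalization moved the median difference of all probes by -0.26 and median scaling by -0.15.

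In granulocytes, VEGF, VEGFB, IGFBP1, FGFR3, IGF2R, FSTL3 and TGFB1I1 were lower after 2 h of IFNT, and INHBA, TGFBR1 and IGFBP6 higher. Treatment and array row coincide in these samples. Of the 23 members tested, 10 passed an adjusted p of 0.05 in limma, 3 higher and 7 lower. That is 43.5% of them, close to the 44.6% of all probes tested, of which 17.2% were higher and 27.4% lower, so the count is no result about the members. The median change was -0.05 among members and -0.05 among all probes. The changes were small: those that passed ranged from -0.80 to 0.75 on the log2 scale. In all 10 the IFNT arrays lay apart from the PBS arrays; 11 of 23 members did so, as did 43.6% of all probes. The other 22 members were not tested, since their probes were above background on fewer than 4 of the 8 arrays.

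**Figure D2:**
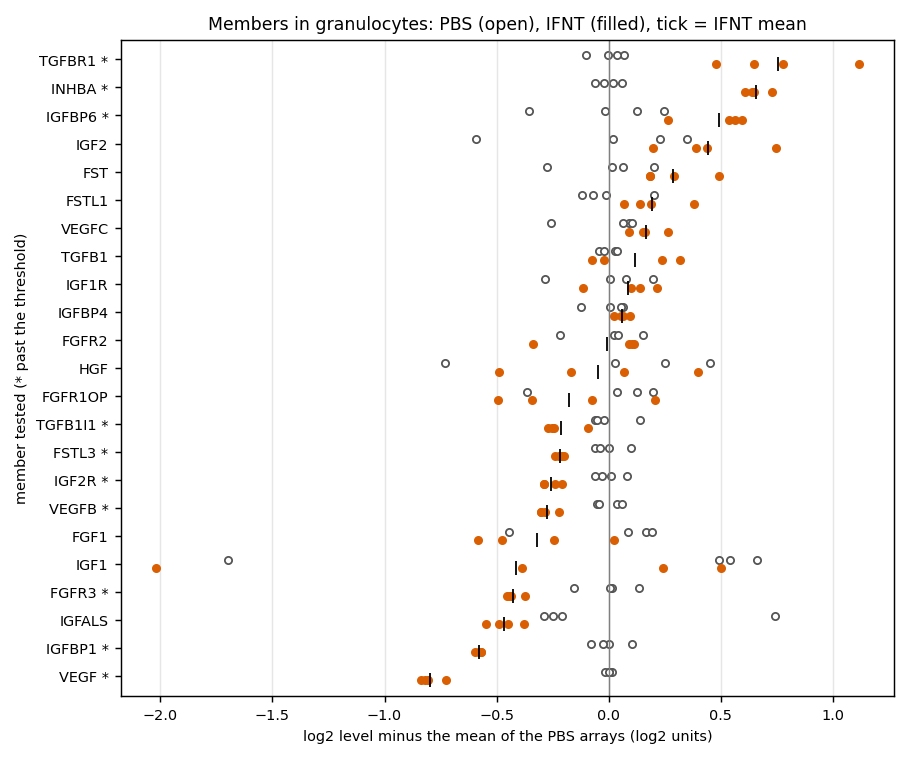
Level of each of the 23 members tested in granulocytes minus the mean of its 4 PBS arrays, in log2 units, with PBS arrays open, IFNT arrays filled, a tick at the IFNT mean and a star where the adjusted p was under 0.05. VEGF and IGFBP1 lie wholly left of their PBS arrays, INHBA and TGFBR1 wholly right, and IGF1 is spread over more than 2 log2 units in both groups.

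Among ligands, VEGF changed the most beside its spread. Its levels were 4.82, 4.81, 4.79 and 4.81 with PBS and 3.99, 3.97, 4.00 and 4.08 with IFNT, a fall of 1.74-fold (log2 -0.80 ± 0.042, SE, adjusted p = 1.3e-06). Every IFNT array lay below every PBS array by far more than either group's range. A probe outside the rule, named VPF in the files and assigned to VEGFA by RefSeq, fell as well (-1.14 ± 0.041, adjusted p = 1.04e-07), so 2 probes of this gene that share no stretch of 25 bases went the same way. VEGFB moved from -0.97, -0.95, -1.06 and -1.05 to -1.31, -1.29, -1.31 and -1.23 (-0.28 ± 0.046, adjusted p = 0.00119), again without overlap. VEGFC, at 0.16 ± 0.087, did not pass (adjusted p = 0.162).

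INHBA rose by 1.58-fold: from -3.02, -3.14, -3.06 and -3.10 with PBS to -2.47, -2.43, -2.44 and -2.35 with IFNT (0.66 ± 0.048, adjusted p = 9.19e-06). The groups stood well apart. The gene encodes the subunit that pairs with itself to form activin A. No other ligand passed the threshold. TGFB1 was at 0.07, -0.01, -0.32 and -0.27 with IFNT, so replicates 1 and 2 lay above all PBS arrays and the others did not (0.11 ± 0.091, adjusted p = 0.352). FGF1 (-0.32 ± 0.174), IGF2 (0.45 ± 0.205) and HGF (-0.05 ± 0.272) also missed it. FGF1 passed without PBS replicate 3 (-0.47) and with the replicate number as a block, and IGF2 with normexp correction. IGF1 read -3.11, -3.16, -5.35 and -2.99 with PBS and -3.41, -3.15, -4.04 and -5.67 with IFNT, where 3 of 4 arrays were above background. With an SE of 0.678 around -0.42, a change in IGF1 of the size seen in VEGF could not have been detected.

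Of the receptors, TGFBR1 rose and FGFR3 and IGF2R fell. TGFBR1 went from -4.90, -4.73, -4.76 and -4.80 to -4.15, -4.02, -4.32 and -3.68 (0.75 ± 0.125, 1.69-fold, adjusted p = 0.00128). The IFNT arrays spread more widely than the PBS arrays, and none overlapped them. FGFR3 fell from -0.92, -1.04, -1.21 and -1.05 to -1.49, -1.43, -1.51 and -1.50 (-0.43 ± 0.064, adjusted p = 6.72e-04). IGF2R, at 5.98, 5.87, 5.84 and 5.91 with PBS, was at 5.66, 5.61, 5.61 and 5.69 with IFNT (-0.26 ± 0.047, adjusted p = 0.002). Both receptors showed a narrow, complete separation of the groups. IGF1R (0.08 ± 0.110) and FGFR2 (-0.01 ± 0.120) did not pass.

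Of the 7 binding proteins tested, IGFBP1 and FSTL3 fell and IGFBP6 rose. IGFBP1 went from -2.27, -2.30, -2.35 and -2.17 to -2.84, -2.87, -2.84 and -2.85 (-0.58 ± 0.049, 1.49-fold, adjusted p = 2.33e-05). The IFNT arrays agreed within 0.03 and lay below all PBS arrays. When all 14 arrays were fitted together, including the BES arrays, its adjusted p was 0.278. FSTL3 moved from -0.64, -0.80, -0.78 and -0.74 to -0.94, -0.96, -0.98 and -0.95 (-0.22 ± 0.047, adjusted p = 0.00547, but 0.0565 in that joint fit). IGFBP6 rose from -5.39, -5.53, -5.87 and -5.27 to -4.95, -4.92, -4.98 and -5.25 (0.49 ± 0.131, adjusted p = 0.0146), with 3 of 4 PBS arrays above background. IFNT replicate 4 lay just above the highest PBS array, and with normexp correction the change was 0.12 and did not pass.

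FST, the activin trap, was at -1.38, -1.27, -1.07 and -1.38 with IFNT and did not pass (0.29 ± 0.111, adjusted p = 0.0662). It passed without PBS replicate 3, in the joint fit, with an intensity trend and with the replicate block. Its adjusted p ran from 0.0141 to 0.158 over all alternatives. Its second probe gave 0.23 with an adjusted p of 0.102. IGFALS was at -4.13, -4.17, -3.18 and -4.21 with PBS and at -4.30, -4.37, -4.41 and -4.47 with IFNT. The groups did not overlap, but PBS replicate 3 lay apart, and the change (-0.47 ± 0.215) passed only without that sample (-0.22, adjusted p = 0.013). FSTL1 (0.20 ± 0.089) and IGFBP4 (0.06 ± 0.053) did not pass, though FSTL1 did without PBS replicate 4 (0.26) and with the replicate block. TGFB1I1 fell from 0.87, 0.71, 0.67 and 0.68 to 0.64, 0.49, 0.46 and 0.48 (-0.22 ± 0.063, adjusted p = 0.023). That call was lost without IFNT replicate 2 (-0.21), replicate 3 (-0.20) or replicate 4 (-0.20). It was also lost without a filter on dim probes (adjusted p = 0.0511 in limma).

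Markers of cell types also moved in the granulocyte samples with IFNT, where 44.6% of all probes passed, 17.2% higher and 27.4% lower. Of 8 granulocyte markers, 3 rose and 1 fell, among them CATHL2, which rose by 1.33 on the log2 scale, LTF, which rose by 1.00, and MMP9, which fell by 0.56. Their summed signal was 718 to 920 with PBS and 744 to 830 with IFNT. The summed signal of 5 monocyte and macrophage markers was 28.0 to 30.5 with PBS and 26.1 to 27.1 with IFNT. Of these, CD14 and C1QB rose and CD36 and CD68 fell. The 1 eosinophil marker with a probe fell from 12.4 to 13.3 with PBS to 10.2 to 11.7 with IFNT. T and NK cell markers summed to 2.79 to 2.85 and 2.74 to 2.97, and 1 of 5 passed, NKG7, which rose by 0.93. Of 2 B cell markers JCHAIN rose by 0.35, and the list summed to 2.15 to 2.31 with PBS and 2.35 to 2.46 with IFNT. The 1 platelet marker tested did not pass. Of markers of tissue cells, COL1A1 rose by 1.42 (1 of 4 stromal markers tested), MUC1 by 2.84 and EPCAM by 0.40 (2 of 5 epithelial) and CNN1 by 1.47 (1 of 3 endothelial and smooth muscle). The part of these cells in the changes of VEGF, IGFBP1 and the other members was not tested.

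In BES, no member passed the threshold in limma, out of 32 tested, beside 3.66% of all probes. At an unadjusted p under 0.05 there were 10 members, beside 25.4% of all probes. The adjusted p ran from 0.0622 to 0.978 and the changes from -0.45 to 0.32 on the log2 scale. In 10 members the groups did not overlap, 4 higher and 6 lower with IFNT, beside 33.5% of all probes.

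**Figure D3:**
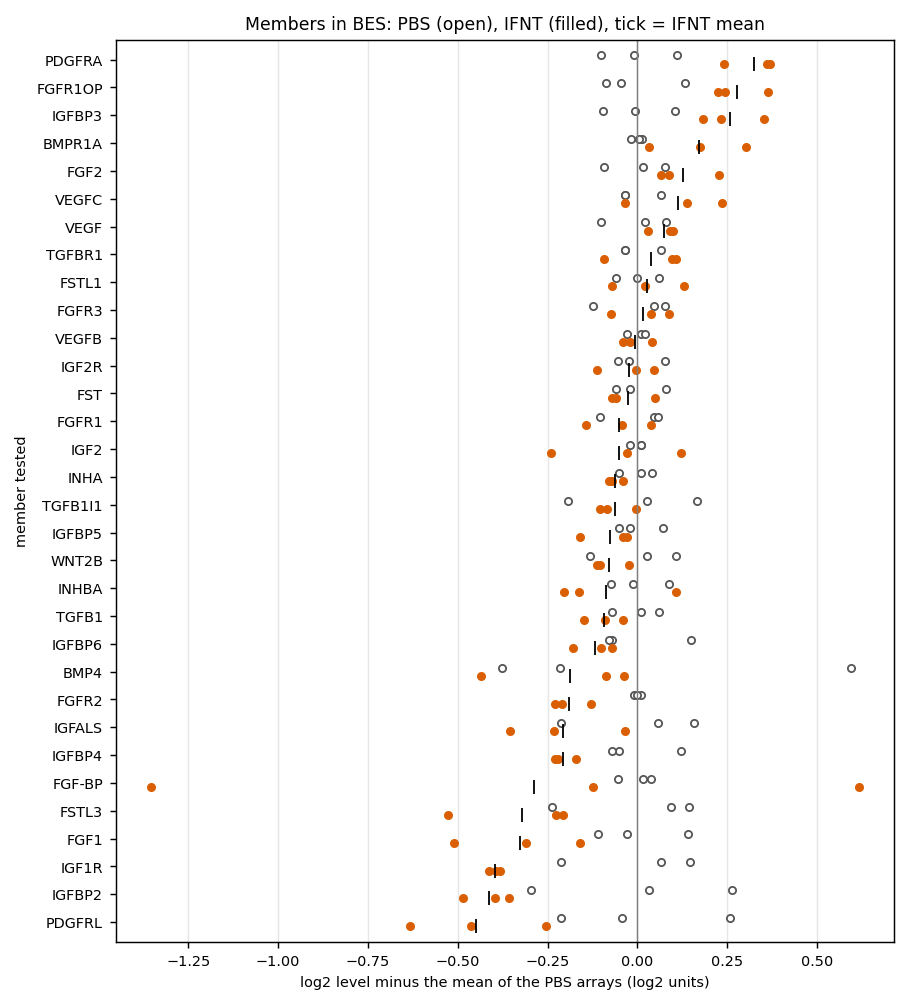
Level of each of the 32 members tested in BES minus the mean of its 3 PBS arrays, in log2 units, with PBS arrays open, IFNT arrays filled and a tick at the IFNT mean. No member passed the threshold; PDGFRA, FGFR1OP and IGFBP3 lie right of their PBS arrays, IGF1R, IGFBP2 and PDGFRL left of them.

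PDGFRA, the PDGF receptor typical of stromal fibroblasts, had the lowest adjusted p in BES. Its levels were -5.77, -5.86 and -5.65 with PBS and -5.39, -5.40 and -5.52 with IFNT (0.32 ± 0.069, adjusted p = 0.0622). IGF1R was at -1.75, -1.67 and -2.03 with PBS and at -2.23, -2.21 and -2.20 with IFNT (-0.40 ± 0.095, adjusted p = 0.0781). PBS replicate 3 lay between the others and the IFNT arrays in IGF1R. Without that sample IGF1R, PDGFRA, IGFBP2 and FGFR1OP passed, the only 4 calls in any fit that left out 1 BES sample. With an intensity trend and a robust prior, IGF1R, FGFR2, IGFBP3 and IGFBP4 passed. PBS replicate 3 was also the only BES sample with PBS in array row 2, the row of all IFNT arrays. With row as a covariate no member passed, but that fit rests on this 1 PBS array and could hardly have given a call. Without PBS replicate 3, treatment and row coincide in BES.

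IGFBP3 was at 2.38, 2.29 and 2.49 with PBS and at 2.74, 2.57 and 2.62 with IFNT (0.26 ± 0.072, adjusted p = 0.105). IGFBP2 was at 1.63, 1.86 and 1.30 against 1.20, 1.24 and 1.11 (-0.41 ± 0.138, adjusted p = 0.14), and IGFBP4 at 3.09, 3.26 and 3.07 against 2.91, 2.97 and 2.92 (-0.21 ± 0.062, adjusted p = 0.12). In each of these the groups lay apart without reaching the threshold. FGFR2, at 2.31, 2.33 and 2.32 against 2.09, 2.19 and 2.11, had an adjusted p of 0.0814, but its spot of identical sequence gave -0.14 with 0.248. Most members that changed in granulocytes lay near 0 in BES. VEGF was at 0.07 ± 0.060, INHBA at -0.08 ± 0.094, TGFBR1 at 0.04 ± 0.068, VEGFB at -0.00 ± 0.044 and FGFR3 at 0.02 ± 0.075. IGF2R was at -0.02 ± 0.062, TGFB1I1 at -0.06 ± 0.095 and IGFBP6 at -0.12 ± 0.076, while IGFBP1 was not tested. FSTL3 lay further from 0, at -0.32 ± 0.130 (adjusted p = 0.194 in limma). Its responses in the 2 cell types did not differ past the threshold (0.10 ± 0.134, adjusted p = 0.644).

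Whether granulocytes and BES responded differently to IFNT was tested in 1 fit of all 14 arrays. Of 35 members tested, 10 differed, 5 with the more positive response in granulocytes and 5 in BES. That is 28.6%, beside 26.5% of all probes (11.7% and 14.8% in the 2 directions). The response itself was tested in both cell types for 20 members, in BES alone for 12 and in granulocytes alone for 3. The 5 in BES include IGFBP3, which was above background on no granulocyte array. VEGF differed by -0.87 ± 0.068 (granulocytes minus BES, adjusted p = 1.79e-06). INHBA differed by 0.74 ± 0.102 (adjusted p = 1.85e-04) and TGFBR1 by 0.72 ± 0.169 (adjusted p = 0.00762). VEGFB differed by -0.28 ± 0.060 (adjusted p = 0.00447) and FGFR3 by -0.45 ± 0.102 (adjusted p = 0.00613). These 5 differences passed under each of the 23 alternatives run.

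**Figure D4:**
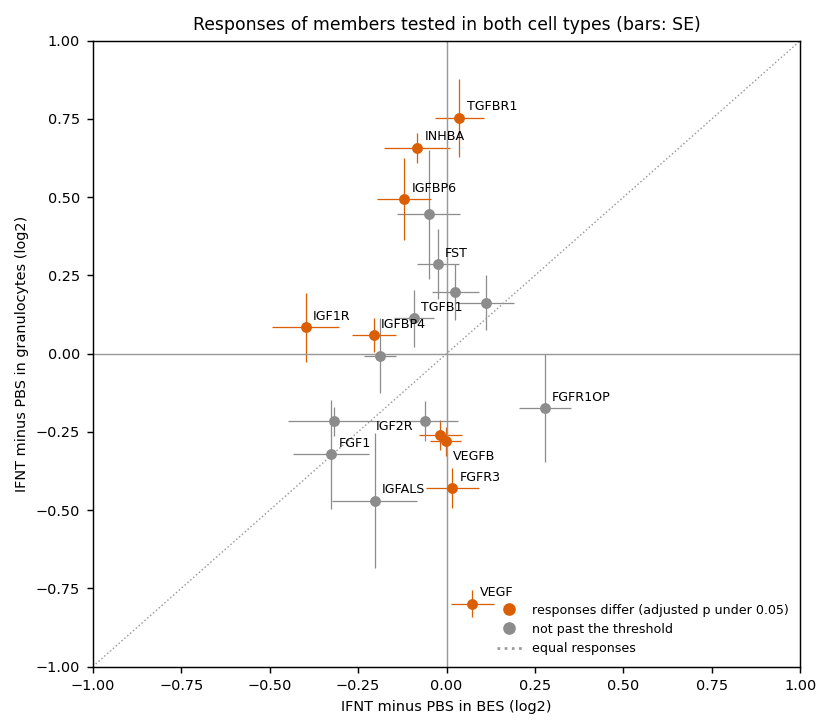
IFNT minus PBS on the log2 scale in BES (x axis) and in granulocytes (y axis) for the 20 members tested in both, with bars of 1 SE. Orange points, where the difference of the responses passed the threshold, lie mostly near 0 on the BES axis; VEGF is lowest on the granulocyte axis and INHBA and TGFBR1 highest.

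The other differences were less firm. IGFBP6 (0.61 ± 0.180, adjusted p = 0.0248) lost its call in 3 of 23 alternatives: with normexp correction (0.24) and without BES PBS replicate 1 (0.54) or BES IFNT replicate 2 (0.58). IGFBP4 (0.27 ± 0.082, adjusted p = 0.031) lost it in 6, at 0.21 to 0.27: without BES PBS replicate 2, BES IFNT replicate 1 or 3, granulocyte PBS replicate 2, or granulocyte IFNT replicate 1 or 4. IGF2R (-0.24 ± 0.074, adjusted p = 0.0301) lost it in 7, at -0.23 to -0.21: without BES PBS replicate 1 or 2, BES IFNT replicate 1 or 3, granulocyte PBS replicate 1, or granulocyte IFNT replicate 2 or 3. IGF1R (0.48 ± 0.164, adjusted p = 0.0482) lost it in 12, at 0.39 to 0.51: without a filter on dim probes and without any 1 sample other than BES PBS replicate 3, granulocyte PBS replicate 4 or granulocyte IFNT replicate 3. For IGFBP4 and IGF1R neither response passed on its own: in IGF1R, BES lay at -0.40 and granulocytes at 0.08. IGFBP3 passed too (adjusted p = 0.00152), but it was above background on no granulocyte array, so its response there has no size. IGFBP1 was not tested in BES, where 1 of 6 arrays was above background, and the difference of the responses did not pass (0.84 ± 0.635).

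Genes that work with the members, taken from 4 lists of pathway components, were read in the same fits. In the TGF-beta and BMP list, 16 of 36 genes had a probe, and 1 of 13 tested rose and 6 fell in granulocytes, beside 17.2% and 27.4% of all probes. ID1, a transcriptional inhibitor that BMP signals induce, rose from 1.50, 1.54, 1.73 and 1.49 to 3.58, 3.37, 3.63 and 3.54 (1.96 ± 0.076, adjusted p = 1.77e-07). THBS1, a matrix protein that can activate TGF-beta, fell by 0.85 on the log2 scale, from 5.26, 5.17, 5.38 and 5.31 to 4.61, 4.27, 4.33 and 4.50. In both genes the groups stood apart. In BES, 0 of the 16 tested passed; ID1 was at 2.43, 2.35 and 2.93 with PBS and at 3.13, 2.93 and 2.87 with IFNT (0.40 ± 0.160, adjusted p = 0.184), with overlap. The ID1 responses differed by 1.56 ± 0.179 (adjusted p = 4.39e-05).

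In the receptor tyrosine kinase list, 11 of 31 genes had a probe, and 3 of 6 tested rose and 2 fell in granulocytes, where 44.6% of all probes passed. FLT1, a receptor of VEGF and VEGFB, fell from -3.67, -3.44, -3.41 and -3.38 to -5.13, -4.91, -4.88 and -4.81 (-1.46 ± 0.088, adjusted p = 2.9e-06). FLT1 and these 2 ligands were thus all lower with IFNT. DUSP6, a phosphatase that growth factor signals induce as a feedback, fell by 0.92 in granulocytes and rose by 0.45 ± 0.056 in BES (adjusted p = 0.00994), and the responses differed by -1.37 ± 0.084 (adjusted p = 2e-07). SPRY2, a feedback inhibitor of these receptors, rose by 0.44 ± 0.080 in BES (adjusted p = 0.0408) and, with DUSP6, made up the 2 calls among 9 tested there, beside 3.66% of all probes. In granulocytes it rose by 0.29 ± 0.066.

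**Figure D5:**
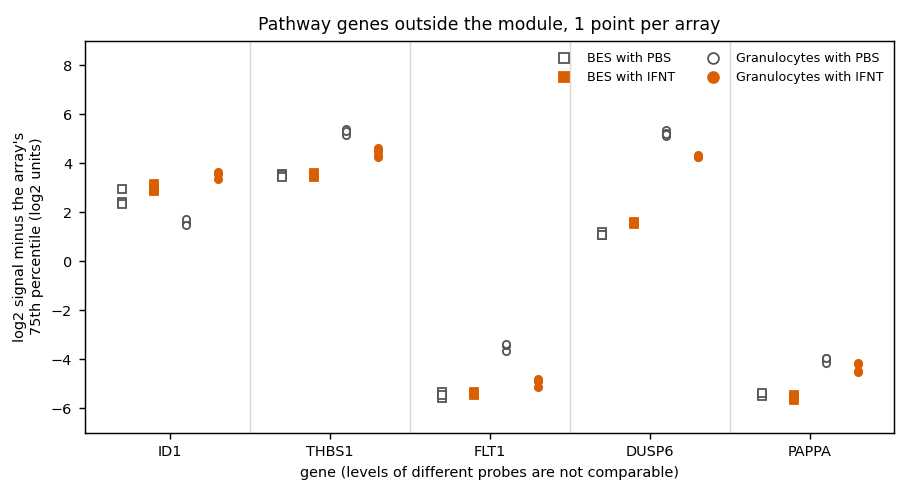
Levels of 5 pathway genes that are no members in BES (squares) and granulocytes (circles) with PBS (open) and IFNT (filled), 1 point per array, in log2 units relative to the array's 75th percentile. In granulocytes ID1 rises and THBS1, FLT1, DUSP6 and PAPPA fall without overlap; in BES only DUSP6 among these 5 passed the threshold.

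In the IGF list, 8 of 15 genes had a probe, and 1 of 4 tested passed in granulocytes, beside the same 44.6%. It was PAPPA, the protease that cleaves IGFBP4 and frees IGF, which fell from -3.95, -4.02, -4.14 and -3.97 to -4.48, -4.19, -4.17 and -4.51 (-0.32 ± 0.092, adjusted p = 0.0216). None of 7 passed in BES. In the Wnt list, 9 of 31 had a probe and none passed, of 4 tested in granulocytes and 7 in BES.

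Members at background complete the account. The probes of 10 members were tested in no comparison: BMP15, BMPR-IA, BMPRIB, FGF8, FGF10, FGF12, FGFR4, INHBB, PDGFB and WNT16. Of these, BMP15, BMPR-IA, FGF10, FGFR4 and WNT16 were above background on none of the 14 arrays, and the others on 1 or 2 arrays each. BMPRIB read -5.11 on granulocyte PBS replicate 1 and -8.46 to -7.95 on the other 3 PBS arrays. A second IGF1 probe was above background on no array, so IGF1 rests on the first.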

How the data were processed

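Per the submitters' processing notes, the authors' arrays were read with Agilent Feature Extraction 9.5. The deposited files hold fluorescence intensity per spot, of which the processed signal is already background-corrected per the file headers. The authors' deposited log2 table equalled the log2 processed signal minus 1 constant per array (within 0.01), was not centred by probe, and served as an alternative. Here log2 processed signals were scaled to each array's 75th percentile, and non-uniform and outlier spots were left out. No probe of a member was saturated or left out. Probes above background on at least 3 (BES) or 4 (granulocyte) arrays were tested with limma 3.58.1 in R 4.3.3, two-sided, with Benjamini-Hochberg adjustment over all probes. Responses were fitted per cell type; their difference and the PBS levels in 1 fit of 14 arrays. The pipeline was tested on simulated data. The number of arrays limits the precision. Members, roles, pathway lists and markers were chosen with earlier results of these data known. Values per sample are given for members past the threshold and the 6 brightest per cell type, and pathway genes (up to 3 per list) by smallest p in granulocytes (2 of these are not reported here, though the list counts include them); PDGFRA, IGF1R and others short of the threshold, and SPRY2, were added after their values were seen. Sequences come from the deposited files; names were matched to RefSeq's ARS-UCD2.0 table (15 by accession, 26 by symbol, 4 by synonym). No genome build is given in the sources used here, so no positions are stated, and promoter and protein sequences were not used here.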

Additional observations from a re-analysis of the deposited data

Results flagged for a closer look

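In granulocytes, 46 groups of 4 arrays (23 members, PBS and IFNT) were searched for a sample far from the others, and 5 were found; chance gives about 1 in 20, or 2.3. IGF1 in PBS replicate 3 was at -5.35, against -3.16 to -2.99 in the others. IGFALS in PBS replicate 3 was at -3.18, against -4.21 to -4.13. FGFR2 in IFNT replicate 3 was at -5.44, against -5.01 to -4.99. VEGFC in PBS replicate 2 was at -3.91, against -3.59 to -3.55. TGFB1I1 in IFNT replicate 1 was at 0.64, against 0.46 to 0.49.

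The IFNT response differed between granulocytes and BES, by the test of the difference itself, for 10 members. It was lower in granulocytes for VEGF (-0.87), FGFR3 (-0.45), VEGFB (-0.28) and IGF2R (-0.24). It was higher in granulocytes for INHBA (0.74), TGFBR1 (0.72), IGFBP6 (0.61), IGF1R (0.48) and IGFBP4 (0.27). For IGFBP3 the fitted value was -0.74, but every granulocyte array was at background, so that value gives neither a size nor a direction of the response there.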

How the results depend on the processing

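The count of members past the threshold stayed within 1.5 times in granulocytes (9 to 13, against 10), for the difference of the responses (7 to 11 against 10) and for the PBS levels (30 to 39 against 32). In BES it was 0, and 1 with normexp correction, 1 with quantile normalization, 4 with an intensity trend and robust prior, and 0 to 4 when 1 sample was left out; the cause was not tested. Of the PBS levels, the sign turned with normexp correction for BMP4 (0.48) and PDGFRA (0.30), both dim. Over all alternatives, single members kept their call 173 times and lost it 7 times in granulocytes, and 201 and 29 times for the difference of the responses. Same-numbered samples deviated together with correlations of -0.02 to 0.05 in BES and -0.12 to 0.20 in granulocytes. With so few samples per group, these values cannot decide whether the numbers pair the samples. With the replicate block, 0 members passed in BES, 13 in granulocytes (FGF1, FST and FSTL1 in addition), 10 for the difference and 32 for the levels. Array row could not be fitted in granulocytes, where it coincides with treatment. Dim probes limit what could be seen: 22 members in granulocytes and 13 in BES were not tested.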
